A study of Arabidopsis thaliana with 6 samples.

Results

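*PR1* (AT2G14610), *PR2* (AT3G57260), *PCC1* (AT3G22231) and *PDF1.2* (AT5G44420) are defense genes used as readouts of hormone signaling in *Arabidopsis*, and their transcript levels were followed array by array in chilled seedlings. They were chosen by locus, each at the 1 probe set tied to it, which makes 4 of the 13520 genes tied to a probe set among the 22746 probe sets tested. RNA came from whole 12 day-old seedlings of 2 genotypes, with 3 ATH1 arrays each, and every seedling had spent 5 days at 24 °C and then 7 days at 10 °C. No seedlings kept at 24 °C were on these arrays, so that all values describe chilled plants. WT seedlings are labelled as the No-0 accession, although the array names of WT read Nd0. The *fbs1–1* seedlings carry a transposon in the first intron of the F-box gene *FBS1*, and this genotype is represented by 1 insertion line. *FBS1* itself was not tied to a probe set here, so that the genotype labels were not checked against its transcript.

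Salicylate and jasmonate are plant hormones that direct different arms of immunity. Salicylate builds up mainly in attacks by pathogens that feed on living tissue, and it acts through the co-activator NPR1 and TGA transcription factors to switch on *PR1* and *PR2*. Jasmonate serves defense against necrotrophs and chewing insects, and together with ethylene it activates *PDF1.2* through ERF transcription factors. The arms often restrain each other, with salicylate known to hold back *PDF1.2*. PR1 is a secreted protein with antimicrobial activity, PR2 is a beta-1,3-glucanase that cuts a polymer of fungal cell walls, and PDF1.2 is a small antifungal defensin. *PCC1*, named for its control by pathogens and the circadian clock, encodes a small protein whose transcript responds to salicylate.

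Values are log2 intensities made with RMA, which corrects background, scales the arrays to each other and summarizes the probes of a probe set, so that a difference of 1 is a 2-fold difference. Levels of different probe sets cannot be set against each other on this scale. The medians of the arrays ran from 2.62 to 2.72, and 40.2% to 40.8% of the values on an array were under 2, where little separates a transcript from background. *RCA*, the rubisco activase of green tissue, stood between 11.47 and 11.64 on all 6 arrays, and *PYK10*, a root beta-glucosidase, between 9.88 and 10.26, so that both green and root tissue were represented. Array numbers in the labels fall into 2 runs. Numbers 43 and 45 are replicate 1 of WT and of *fbs1–1* and are called the first array set, while 59, 60, 61 and 62 are replicates 2 and 3 and form the second. Genotypes were compared with limma, a linear model with moderated variances fitted across all probe sets, with a call at a p under 0.05 after Benjamini-Hochberg adjustment over all probe sets. *RCA*, *PYK10* and *EXPA7* did not pass (adjusted p = 0.753, 0.869 and 0.377 in limma). The labels call the samples biological replicates.

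*PR1*, *PR2* and *PCC1* were tied to their probe sets only through the study's lists of genes that differed on these same arrays, and *PDF1.2* through the platform annotation. The genotype differences of *PR1*, *PR2* and *PCC1* are therefore not independent of how their probe sets were identified. Of the 4 genes, *PR1* alone passed limma with genotype as the only term, and it was more highly expressed in WT. With a block for array set *PR2* passed too, with higher values in *fbs1–1* (adjusted p = 0.0188). Among all probe sets 1.57% passed with higher values in WT, 1.68% with higher values in *fbs1–1* and 3.25% in either direction. The mean of *PR2* was higher in *fbs1–1*, and those of *PCC1* and *PDF1.2* were higher in WT.

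**Figure D1:**
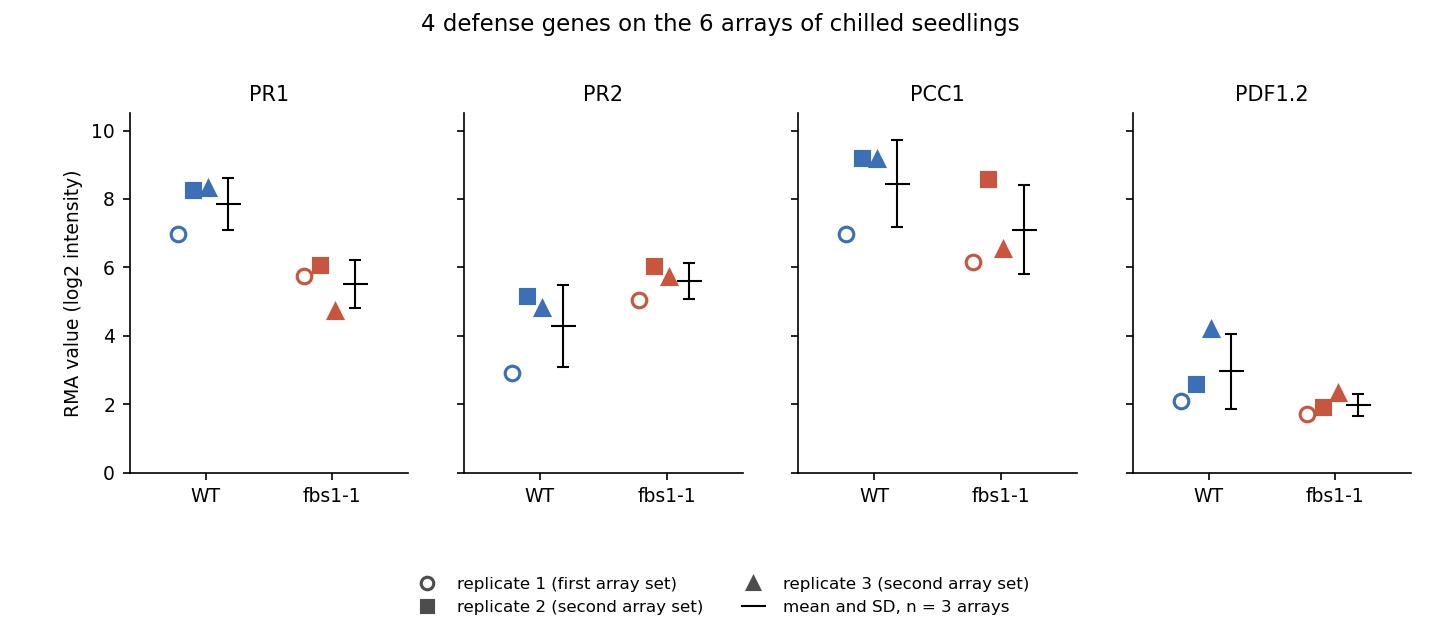
RMA values (log2 intensity, vertical axis) of *PR1*, *PR2*, *PCC1* and *PDF1.2* on each of the 3 WT and 3 *fbs1–1* arrays, with the genotype mean and SD as a black bar and open circles for the first array set. The *PR1* values of WT, from 6.97 to 8.31, lie above those of *fbs1–1*, from 4.72 to 6.07, whereas the genotypes overlap for the other 3 genes.

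*PR1* (probe set 266385_at) measured 6.97, 8.27 and 8.31 in WT replicates 1 to 3. In *fbs1–1* it measured 5.74, 6.07 and 4.72. The lowest WT array stood 0.90 above the highest *fbs1–1* array, and each genotype had 1 array well below its other two, replicate 1 in WT and replicate 3 in *fbs1–1*. Complete separation with WT on top was seen in 8.94% of all probe sets, and separation in either direction in 19.7%. The means were 7.85 ± 0.76 in WT and 5.51 ± 0.70 in *fbs1–1* (SD, n = 3), a difference of 2.34 (SE 0.42, 95% confidence interval 1.38 to 3.30) or 5.06-fold, with an adjusted p of 0.0228 in limma. Of 5 genes listed as markers of senescing leaves, where *PR1* is also known to be expressed, 2 were tied and 0 passed. One of them, *SEN4*, tied through the study's list of genes higher in WT, had a difference of 1.12 (adjusted p = 0.100), in the direction of *PR1*. It passed with the block for array set (adjusted p = 0.0380), and the study also lists it, as *XTH24*, among jasmonate genes. The other, *SAG101*, had a difference of 0.04 (adjusted p = 0.924) and was under 2 on all 6 arrays. The part of such tissue in the *PR1* levels was not tested. In whole seedlings, fewer cells that express a gene and less of its RNA per cell cannot be told apart. The *PR1* difference was 1.23 in the first array set and 2.89 in the second (adjusted p = 0.0182 in limma on the 4 arrays of the second set), and a block for array set gave an adjusted p of 0.0150. Leaving out 1 array at a time kept the call for WT replicate 1 and *fbs1–1* replicate 2. It was lost when the array left out was WT replicate 2 (2.13, adjusted p = 0.0908), WT replicate 3 (2.11, 0.0852), *fbs1–1* replicate 1 (2.45, 0.0571) or *fbs1–1* replicate 3 (1.94, 0.0762).

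None of the tied relatives of *PR1* passed, against 3.25% of all probe sets in either direction. Of 18 genes listed as encoding proteins of the PR1 family, 16 were tied to a probe set, all by the platform annotation, and 0 passed limma in either direction, with 1 higher in WT and 2 higher in *fbs1–1* at an unadjusted p under 0.05. At that unadjusted threshold, 6.71% of all probe sets were higher in WT and 7.99% higher in *fbs1–1*. Their median difference was -0.05, against -0.01 over all probe sets. Their differences ran from 0.55 for AT1G50060 (adjusted p = 0.200) to -0.51 for AT4G25790 (adjusted p = 0.204), the latter with the higher mean in *fbs1–1*. Of these 16 relatives, 9 had a mean under 2 in both genotypes. *PRB1*, the basic relative that lies directly beside *PR1* on chromosome 2, was not tied to a probe set.

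*PR2* (probe set 251625_at, named *BGL2* by RefSeq) measured 2.92, 5.15 and 4.80 in WT replicates 1 to 3. In *fbs1–1* it measured 5.03, 6.05 and 5.73. WT replicate 1 stood apart at the bottom, and WT replicate 2 lay 0.12 above *fbs1–1* replicate 1, so that the genotypes overlapped. The means were 4.29 ± 1.2 in WT and 5.60 ± 0.52 in *fbs1–1* (SD, n = 3). The *fbs1–1* mean was higher by 1.31 (SE 0.53, 95% confidence interval 0.11 to 2.51) or 2.49-fold, which did not pass (adjusted p = 0.289 in limma). Within array sets *fbs1–1* was above WT by 2.12 in the first set and by 0.91 in the second. The first set holds 1 array of each genotype, so that any unequal values separate there. On the 4 arrays of the second set *PR2* passed limma (adjusted p = 0.0450), together with 2.73% of all probe sets. Blocking by array set left the difference at 1.31 with a smaller error (SE 0.24), and *PR2* passed at an adjusted p of 0.0188, as did 5.36% of all probe sets in either direction. Without WT replicate 1 the difference was 0.63 (adjusted p = 0.338).

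Of 9 genes in the list of *PR2* relatives, 4 were tied to a probe set and 1 passed, with higher values in *fbs1–1*, as did 1.68% of all probe sets. The relative that passed was AT4G16260, to which the annotation gives no symbol. It measured 2.23, 2.11 and 1.93 in WT and 2.84, 2.66 and 2.67 in *fbs1–1*. The *fbs1–1* arrays all lay above the WT arrays, as in 10.8% of all probe sets. Its mean was higher in *fbs1–1* by 0.63 (SE 0.11) or 1.55-fold (adjusted p = 0.0206 in limma), near the low end of the scale. The call held only without WT replicate 1, and leaving out any other array brought the adjusted p to between 0.0643 and 0.0790. *BG14* had a difference of 0.17 (adjusted p = 0.673). *BG1*, which directly follows *PR2* on chromosome 3, was not tied to a probe set, and neither was *BG3*.

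*PCC1* (probe set 256766_at) measured 6.98, 9.19 and 9.17 in WT replicates 1 to 3. In *fbs1–1* it measured 6.17, 8.58 and 6.53. Replicates 2 and 3 of WT and replicate 2 of *fbs1–1* were high and the other 3 arrays were low, so that the genotypes overlapped by 1.60. The means were 8.44 ± 1.27 in WT and 7.09 ± 1.3 in *fbs1–1* (SD, n = 3), the largest SD in each genotype among the 4 genes. The difference of 1.35 (SE 0.73, 95% confidence interval -0.31 to 3.01) or 2.55-fold did not pass (adjusted p = 0.463 in limma). The WT value was higher by 0.81 in the first array set and by 1.62 in the second (adjusted p = 0.235 on those 4 arrays), and the block for array set gave an adjusted p of 0.145. The difference became 2.08 when WT replicate 1 was left out, 2.09 for *fbs1–1* replicate 2 and 0.89 for *fbs1–1* replicate 1, and it did not pass in any of these fits.

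Of 5 genes listed as neighbors or relatives of *PCC1*, 4 were tied to a probe set. Of these, 1 passed with higher values in *fbs1–1*, as did 1.68% of all probe sets, a direction opposite to that of *PCC1*. This gene, AT3G22240, is the second protein-coding gene after *PCC1* on chromosome 3 in assembly TAIR10.1. It measured 6.49, 6.17 and 6.52 in WT. In *fbs1–1* it measured 7.84, 9.38 and 7.94. All *fbs1–1* arrays lay above all WT arrays, as in 10.8% of all probe sets. Replicate 2 was the highest *fbs1–1* array, as it was for *PCC1*. The *fbs1–1* mean was higher by 2.0 (SE 0.36) or 3.99-fold, which passed (adjusted p = 0.0233 in limma, and 0.0169 when blocked by array set). Leaving out WT replicate 1, 2 or 3 raised the adjusted p to 0.0501, 0.0926 or 0.0699, and leaving out *fbs1–1* replicate 3 raised it to 0.0532. The annotation gives this gene neither a symbol nor a role, and AT3G22235, which lies between the pair, was not tied to a probe set. The other tied genes around *PCC1* had differences of -0.17 (AT3G22210), -0.06 (AT3G22220) and 0.21 (AT3G22250), with adjusted p values of 0.681, 0.918 and 0.564.

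*PDF1.2* (probe set 249052_at), the jasmonate and ethylene readout, was low on most arrays. It measured 2.09, 2.58 and 4.19 in WT replicates 1 to 3. In *fbs1–1* it measured 1.71, 1.91 and 2.32. WT replicate 3 stood alone at the top, and *fbs1–1* replicate 3 lay 0.23 above WT replicate 1, so that the genotypes overlapped. The means were 2.95 ± 1.1 in WT and 1.98 ± 0.31 in *fbs1–1* (SD, n = 3), with 2 arrays under 2. The difference of 0.98 (SE 0.46, 95% confidence interval -0.07 to 2.02) or 1.97-fold did not pass (adjusted p = 0.383 in limma). Without WT replicate 3 it was 0.36 (adjusted p = 0.559). Within array sets it was 0.39 in the first and 1.27 in the second (adjusted p = 0.255 on those 4 arrays), and the block gave an adjusted p of 0.216.

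Other defensin genes were read on the same arrays. Of 12 relatives of *PDF1.2* listed, 9 were tied to a probe set, and their median difference was -0.03. A mean under 2 in both genotypes was found for 4 of the 9. Of these 9, 0 passed with higher values in WT and 1 with higher values in *fbs1–1*, against 1.57% and 1.68% of all probe sets. *PDF1.2b*, a close copy of *PDF1.2*, measured 3.25, 2.58 and 3.79 in WT and 2.18, 2.21 and 1.67 in *fbs1–1*. Here the WT arrays all lay above the *fbs1–1* arrays, and the difference of 1.19 (SE 0.28) or 2.28-fold did not pass (adjusted p = 0.0667 in limma, and 0.0544 with the block). Its probe set is of the type whose probes can match transcripts of more than 1 gene, and how far it shares signal with *PDF1.2* was not tested. *PDF1.4* measured 1.37, 1.46 and 3.01 in WT and 1.26, 1.26 and 1.70 in *fbs1–1*. WT replicate 3 was its highest array, as for *PDF1.2* and *PDF1.2b*, and its difference was 0.54 (adjusted p = 0.623).

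The defensin that passed was *PDF2.1*, of the other branch of the family. It measured 5.10, 5.18 and 4.69 in WT and 6.67, 6.76 and 6.74 in *fbs1–1*, with an SD of 0.26 and 0.045. The genotypes were far apart compared with the spread within them, and the *fbs1–1* mean was higher by 1.73 (SE 0.14) or 3.33-fold (adjusted p = 0.0004 in limma). *PDF2.1* passed in all 6 fits that left out 1 array, with differences between 1.58 and 1.83. *PDF2.5* had a mean higher by 0.87 in *fbs1–1* (adjusted p = 0.138, and 0.0249 when blocked by array set). *PDF2.2* and *PDF2.3* had differences of -0.21 (adjusted p = 0.591) and -0.33 (adjusted p = 0.377). *PDF1.2c* and *PDF1.3* were not tied to a probe set.

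**Figure D2:**
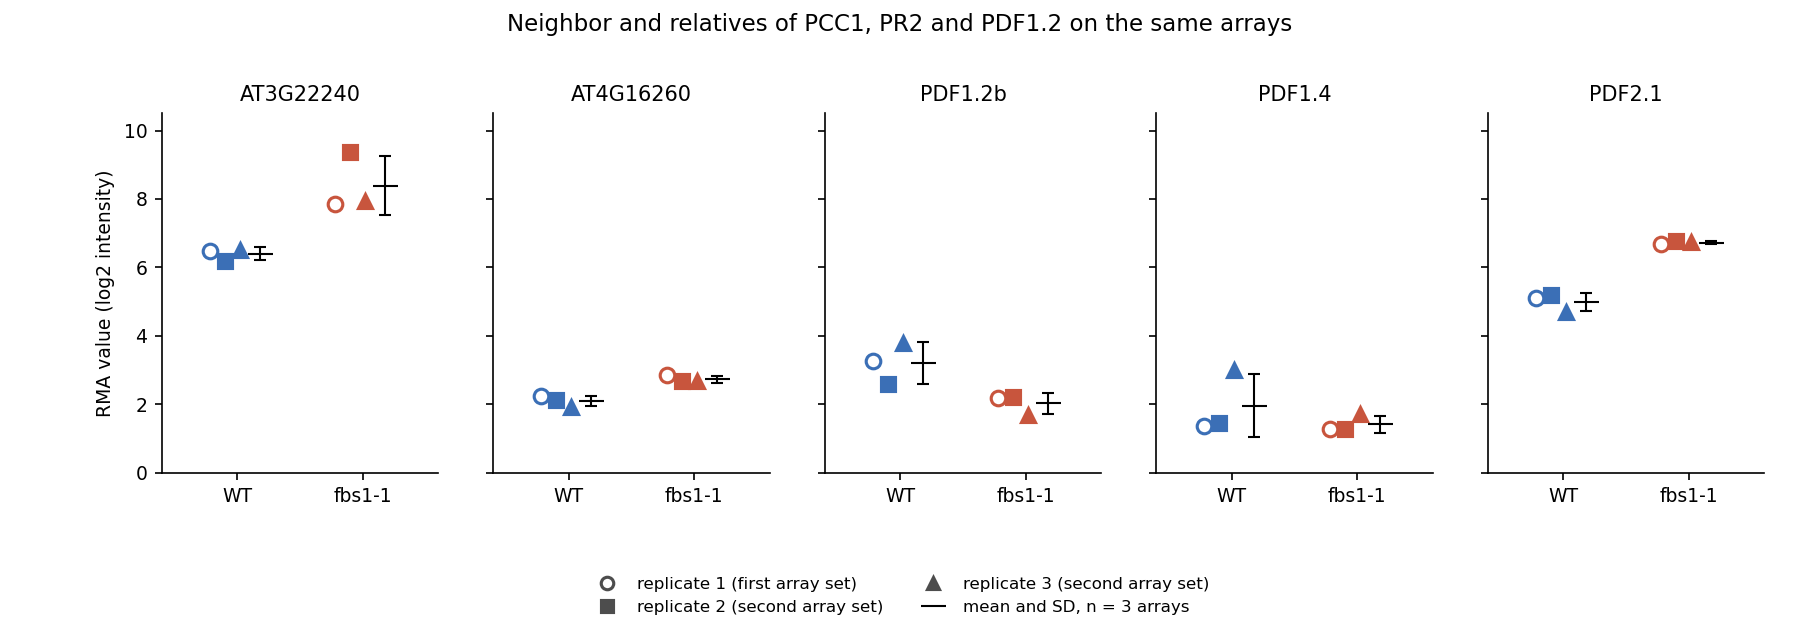
RMA values (log2 intensity, vertical axis) of AT3G22240, which lies close to *PCC1*, of AT4G16260 from the *PR2* list, and of 3 defensin genes on the 3 WT and 3 *fbs1–1* arrays, with mean and SD. AT3G22240 and *PDF2.1* are higher on every *fbs1–1* array, by 2.0 and 1.73 in the mean, while *PDF1.2b* is higher on every WT array.

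The pairs of genes show where the markers went together between genotypes and where they parted. For each of the 6 pairs the WT minus *fbs1–1* difference of one gene was subtracted from that of the other, as a description without a test. *PR1* and *PR2*, both salicylate readouts, were farthest apart, by 3.65 (SE 0.57) or 12.6-fold. On each WT array *PR1* relative to *PR2* was higher than on any *fbs1–1* array, so that this ratio separated the genotypes, and so did the ratio of *PR2* to *PCC1* and of *PR2* to *PDF1.2*. *PR2* departed from *PCC1* by 2.66 (SE 0.54) and from *PDF1.2* by 2.29 (SE 0.68), with *PR2* on the *fbs1–1* side in both pairs. *PR1* exceeded *PCC1* by 0.99 (SE 0.68) and *PDF1.2* by 1.36 (SE 0.73), and the ratios overlapped between genotypes. *PCC1* and *PDF1.2* were the closest pair, at 0.38 with an SE of 0.96. In the sign of the mean difference, *PR1* and *PCC1* went with the jasmonate marker *PDF1.2*, and *PR2* had the opposite sign. *PR1* and *PCC1* were tied through the study's list of genes higher in WT and *PR2* through its list of genes higher in *fbs1–1*. The opposite signs, and the separation of the ratios that hold *PR2*, therefore follow the lists that supplied the probe sets and are no independent evidence that the salicylate markers part.

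Within genotypes the picture was different. In WT replicate 1 all 4 genes were below the WT mean, *PR1* by 0.88, *PR2* by 1.37, *PCC1* by 1.47 and *PDF1.2* by 0.86. In WT replicate 3 all 4 were above it, by 0.46, 0.51, 0.72 and 1.24. In WT replicate 2 the 3 salicylate-linked genes were above the mean, by 0.42, 0.87 and 0.75, and *PDF1.2* was below it at -0.38. *fbs1–1* replicate 2 had the same signs, at 0.56, 0.44 and 1.49 for *PR1*, *PR2* and *PCC1* and -0.07 for *PDF1.2*. The other *fbs1–1* arrays were mixed. Replicate 1 had *PR1* above the mean by 0.23 and *PR2*, *PCC1* and *PDF1.2* at -0.57, -0.93 and -0.27, and replicate 3 had *PR2* and *PDF1.2* above it by 0.13 and 0.34 and *PR1* and *PCC1* at -0.79 and -0.56.

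Counted over the 6 arrays, *PR2* and *PCC1* deviated the same way on 5, and so did *PR1* and *PCC1*. *PR1* and *PR2* did so on 4, and *PDF1.2* deviated with *PR2* on 4, with *PCC1* on 3 and with *PR1* on 2. These counts describe 6 arrays, in which the deviations of a genotype sum to 0, and carry no test. The opposite signs of the genotype differences of *PR2* and *PCC1* follow the lists that named them. The part of array set in their shared deviations was not tested.

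**Figure D3:**
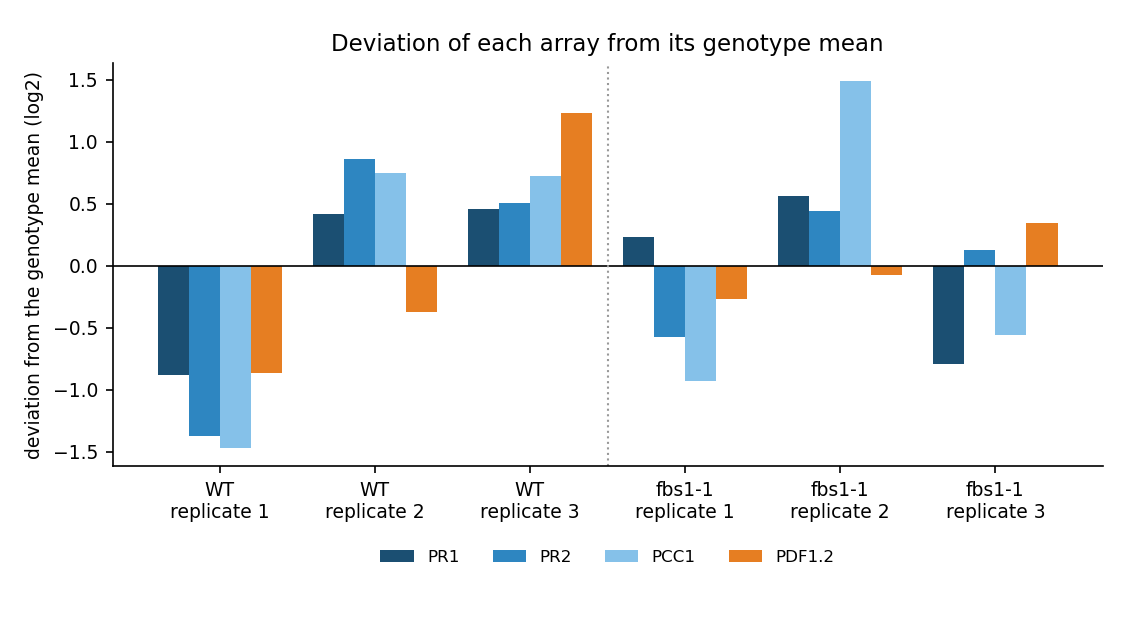
Deviation of each array from its own genotype mean (log2, vertical axis) for *PR1*, *PR2*, *PCC1* and *PDF1.2*, 1 group of bars per array. In WT replicate 1 all 4 bars are below 0, with *PCC1* at -1.47, and in replicate 2 of both genotypes the 3 salicylate-linked genes are above 0 and *PDF1.2* is below it.

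The levels were also compared between the array sets. In the fit with both terms the second set was higher than the first by 1.46 (2.75-fold) for *PR2* and by 1.80 (3.47-fold) for *PCC1*. It was higher by 0.85 for *PDF1.2* and by 0.49 for *PR1*. None of the 4 genes passed limma for array set, with adjusted p values of 0.0950, 0.164, 0.340 and 0.609, and 0.132% of all probe sets did. *PR2* and *PCC1* were higher in the second set in both genotypes, by 2.06 and 2.2 in WT and by 0.86 and 1.39 in *fbs1–1*, whereas *PR1* was higher by 1.32 in WT and stood at -0.34 in *fbs1–1*. *GI*, a clock gene, measured 3.15, 1.65 and 1.68 in WT and 4.35, 1.68 and 1.64 in *fbs1–1*. It was high on both arrays of the first set and low on the other four, and fell by 2.09 from the first set to the second (adjusted p = 0.0298 in limma). *GI* was the only one of 13 listed clock genes tied to a probe set, and the part of time of day in the levels of *PCC1* and the other genes was not tested.

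Few other genes of the salicylate pathway could be read. Of 61 listed, 8 were tied to a probe set, 6 of them by the platform annotation. Of these 8, 0 passed limma with higher values in WT and 1 with higher values in *fbs1–1*, against 1.57% and 1.68% of all probe sets. At an unadjusted p under 0.05 there was 1 in each direction, against 6.71% of all probe sets higher in WT and 7.99% in *fbs1–1*. The median difference of the 8 genes was 0.00, and 3 of the 8 were under 2 on all 6 arrays, where little separates a transcript from background. The gene that passed was *ICS2*, one of a pair of isochorismate synthases of salicylate synthesis, with 1.71, 2.01 and 1.87 in WT and 2.84, 2.68 and 3.0 in *fbs1–1*. The genotypes did not overlap, and the *fbs1–1* mean was higher by 0.98 (SE 0.12) or 1.97-fold (adjusted p = 0.0043 in limma), from a WT mean under 2. *ICS2* passed in all 6 fits that left out 1 array. *ICS2* and *UGT74F2* were tied through the study's own lists, which are not independent evidence of their direction.

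*UGT74F2*, a salicylate glucosyltransferase, measured 3.88, 3.94 and 4.66 in WT and 2.51, 3.46 and 3.27 in *fbs1–1*. No *fbs1–1* array reached the lowest WT array, and the difference of 1.07 (SE 0.28) did not pass (adjusted p = 0.0890 in limma, and 0.0166 when blocked by array set). Its close relative *UGT74F1* had a difference of -0.01 (adjusted p = 0.991). *GRX480*, a glutaredoxin known to link salicylate to the repression of *PDF1.2*, measured 2.36, 2.07 and 1.93 in WT and 2.03, 2.38 and 1.99 in *fbs1–1*. Its difference was -0.01 (adjusted p = 0.985), with values near the low end of the scale. *SAG101*, the lipase-like partner of EDS1, had a difference of 0.04 (adjusted p = 0.924). AT5G55450, the only tied gene in the list of further salicylate targets, measured 5.28, 6.82 and 6.41 in WT. In *fbs1–1* it measured 6.34, 7.08 and 6.28. The genotypes overlapped, and its difference of -0.40, with the higher mean in *fbs1–1*, did not pass (adjusted p = 0.724 in limma). *NPR1*, the TGA genes, *ICS1* and *PR5* were not tied to a probe set.

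On the jasmonate side, 11 of 26 listed genes were tied, 5 of them by the platform annotation, and their median difference was 0.56. Of these, 4 passed limma with higher values in WT and 0 with higher values in *fbs1–1*, against 1.57% and 1.68% of all probe sets. At an unadjusted p under 0.05 there were 7 and 1, a threshold passed in these directions by 6.71% and 7.99% of all probe sets. The 4 were the jasmonate marker *CORI3* (5.23), the jasmonate repressors *JAZ6* (1.45) and *JAZ9* (0.93), and the transcription factor *ERF2* (1.22), with adjusted p values of 7.6e-07, 0.0029, 0.0173 and 0.0380. *CORI3* was under 2 on all 3 *fbs1–1* arrays (1.44, 1.64 and 1.85) and *ERF2* on 2 of them, so that these differences are set against values near background. All 4 were tied through the study's list of genes higher in WT, so that this count gives no independent evidence on direction. Of the 5 genes tied by the platform annotation 0 passed, and 2 had an unadjusted p under 0.05. These were the thionin gene *THI2.1*, with a difference of 0.56, and the jasmonate methyltransferase gene *JMT*, with 0.53, which passed with the block for array set (adjusted p = 0.0447 and 0.0452). Both were under 2 on all 6 arrays, where little separates a transcript from background. *ERF2* was no longer called in 5 of the 6 fits that left out 1 array (all but WT replicate 1, adjusted p 0.0825 to 0.162) and *JAZ9* in the 3 that left out an *fbs1–1* array (0.0601 to 0.0758).

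Other genes that answer to jasmonate and ethylene, as *PDF1.2* does, were read as well. *TI1*, a defensin-like trypsin inhibitor, measured 4.55, 4.08 and 4.97 in WT and 3.70, 3.35 and 3.82 in *fbs1–1*, with no overlap. Its difference was 0.91 (SE 0.22) and did not pass (adjusted p = 0.0672 in limma). *CHIB*, the basic chitinase also called PR3, measured 2.69, 3.22 and 2.62 in WT and 3.34, 4.27 and 3.70 in *fbs1–1*, again with no overlap but with the *fbs1–1* arrays on top. Its mean was higher in *fbs1–1* by 0.93 (SE 0.24), which did not pass (adjusted p = 0.0923, and 0.0371 when blocked by array set). *TI1* was tied through the study's list of genes higher in WT and *CHIB* through that of genes higher in *fbs1–1*, so that their opposite directions follow the lists that named them. *EIN3*, the ethylene transcription factor, had a difference of 0.03 (adjusted p = 0.931). *ORA59* and *ERF1*, which activate *PDF1.2*, were not tied to a probe set.

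**Figure D4:**
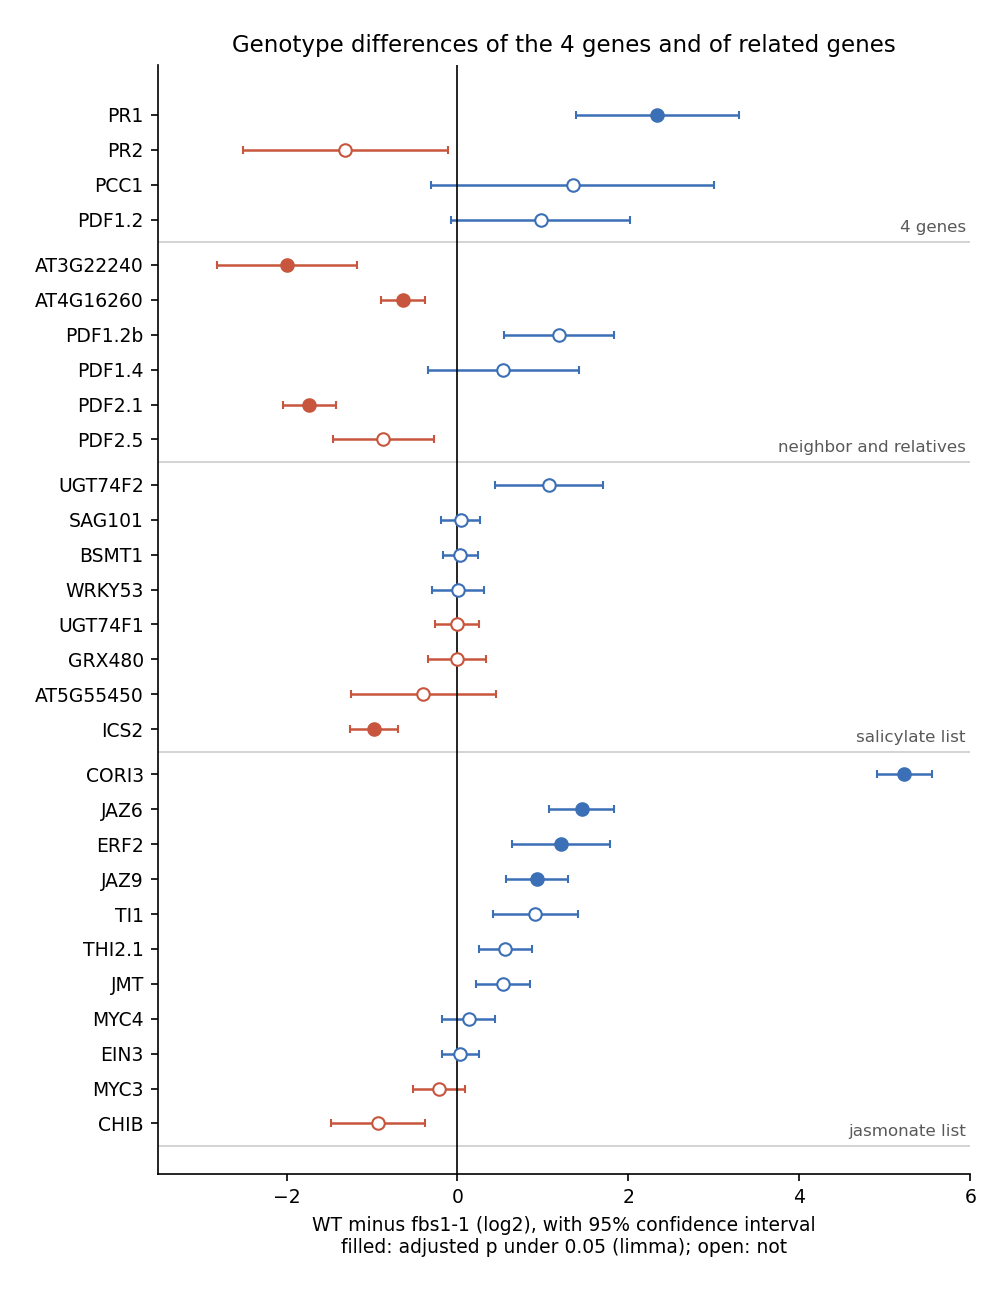
WT minus *fbs1–1* difference (log2, horizontal axis) with its 95% confidence interval for the 4 genes, the neighbor of *PCC1* with relatives of *PR2* and *PDF1.2*, and every tied gene of the salicylate and jasmonate lists, with filled points for an adjusted p under 0.05 in limma. *PR1* at 2.34 is the only filled point among the 4 genes, and *PR2* at -1.31 is the only one of them left of 0.

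The probe sets most like each gene over the 6 arrays were taken from 817 candidates with a mean of at least 2 and a range of at least 1, each tied to 1 gene. Pearson's r over these 6 arrays, which share the genotypes and array sets, is given as a description. The 3 closest to *PR1* were *NYC1* (0.992), AT3G45160 (0.984) and *SAPX* (0.984). *NYC1* was tied through the study's list of genes higher in WT, so that its likeness to *PR1* is not independent of that list. AT3G01190 (0.991), AT5G58300 (0.988) and AT5G46730 (0.987) were closest to *PR2*, and AT2G41090 (0.999), AT5G03350 (0.980) and AT3G60420 (0.95) to *PCC1*. For *PDF1.2* they were *AKINBETA1* (0.972), *IVD* (0.961) and *Hsp70-2* (0.954). No probe set was among the closest 3 of more than 1 of the 4 genes. AT2G41090 repeated the order seen for *PCC1*, with 8.68, 9.59 and 9.51 in WT and 8.36, 9.33 and 8.45 in *fbs1–1*, and its difference was 0.55 (adjusted p = 0.481).

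Over 17 alternative settings the sign of the genotype difference was kept for each of the 4 genes. *PR1* passed in 12 of them, with differences from 1.94 to 2.89. *PR2* passed in 3, with the *fbs1–1* mean higher by 0.63 to 1.75. *PCC1* passed in 0, with differences from 0.89 to 2.09 and adjusted p values from 0.0878 to 0.896, and *PDF1.2* in 0, with differences from 0.36 to 1.4 and adjusted p values from 0.0910 to 0.884. By rank products, the statistic of the study's methods, taken over all 9 pairings between genotypes and given without a p, *PR1* stood at position 31 of 22746, *PCC1* at 123 and *PDF1.2* at 283 among probe sets higher in WT. *PR2* stood at position 115 among those higher in *fbs1–1*. The study made its lists with this statistic on these same arrays, and *PR1*, *PCC1* and *PR2* were tied through them. Their positions are therefore not independent of how their probe sets were identified.

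**Figure D5:**
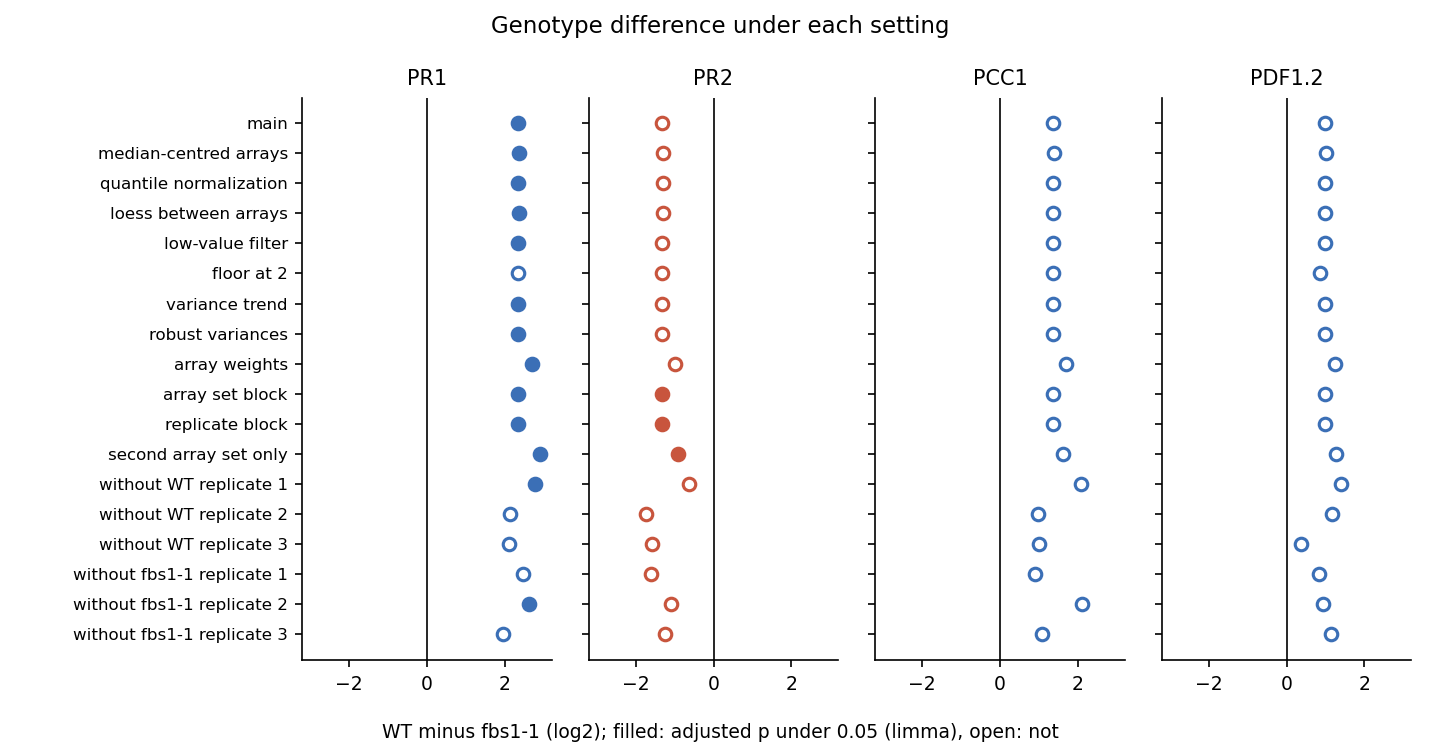
WT minus *fbs1–1* difference (log2, horizontal axis) of *PR1*, *PR2*, *PCC1* and *PDF1.2* in the fit of all 6 arrays (top row) and under each of 17 other settings, with filled points for an adjusted p under 0.05 in limma. *PR1* stays between 1.94 and 2.89, and *PR2* is filled only with a block or in the second array set.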

How the data were processed

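The authors normalized the 6 arrays with RMA in R, and the deposited values are log2 intensities; versions are not given in the sources used here, and no detection calls were used. Per the labels, arrays were grouped by genotype. Control probe sets (64) were left out. limma 3.58.1 (R 4.3.3) fitted genotype as the only term over 22746 probe sets, with Benjamini-Hochberg adjustment, after tests on simulated data. Probe sets were named by the platform annotation (13436 with 1 gene matched to TAIR10.1) and otherwise by the study's gene lists, used as a probe map only (234), and 8496 had no gene. The 4 genes, the gene lists and the tests were chosen with earlier results of these data known. Beyond the 4 genes, up to 4 passing and up to 2 other genes of each list were named, with all measured relatives, and further list genes named beyond this rule were chosen after their values were seen. A gene with several probe sets was read at the one with the highest mean. Rank products were computed without their p, which needs resampling over probe sets. Arrays have no read depth, and their number limits the precision. Gene order follows TAIR10.1, and coordinates were not used here. Alternatives were other scalings, a filter at the 40th percentile of mean value, a floor at 2, other variance models, array weights, blocks, the second array set alone, and each array left out. Python 3.11.15 with pandas 2.3.3, numpy 2.4.6 and matplotlib 3.10.9 made the tables and figures.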

Additional observations from a re-analysis of the deposited data

How the results depend on the processing

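The 17 alternatives reversed the sign of none of the 4 genes. With all values under 2 set to 2, which leaves many probe sets without variance, *PR1* kept its difference of 2.34 and no longer passed (adjusted p = 0.248 in limma), and 54 probe sets passed with higher values in WT and 59 with higher values in *fbs1–1*, against 358 and 382 without a floor. Leaving out 1 array at a time gave differences of 1.94 to 2.78 for *PR1*, and counts of 142 to 338 higher in WT and 140 to 319 higher in *fbs1–1*. With array weights, between 0.399 for WT replicate 1 and 1.52 for WT replicate 3, the counts were 570 and 625. With the array set as a block they were 569 and 650, and *PR2*, at -1.31, passed (adjusted p = 0.0188), as it did on the second array set alone (-0.91, adjusted p = 0.0450). The series describes 3 independent sets of seedlings without saying which arrays share one, so that the numbers were not taken as pairs. Same-numbered arrays deviated together with r of 0.28, 0.088 and 0.14 for replicates 1, 2 and 3. Between different numbers of the second array set, r was 0.11 (WT replicate 2 with *fbs1–1* replicate 3) and 0.14 (WT replicate 3 with *fbs1–1* replicate 2). With the replicate number as a block, *PR2* at -1.31 passed (adjusted p = 0.0235), the other 3 genes kept their calls, and 487 and 541 probe sets passed. With platform names alone, 0 genes of the salicylate list passed with higher values in *fbs1–1* and 0 of the jasmonate list with higher values in WT, since those that passed were tied through the study's lists. Setting values under 2 to 2 moved no relative change between 2 of the genes by more than the spread between arrays. The cause of the other changes was not tested. About 40% of values lie under 2, and differences there, as for *PDF1.2* in *fbs1–1*, are limited by background signal.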
